A study of Caenorhabditis elegans with 2 samples.

Results

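The genes considered here encode the factors that drive translation and the enzymes that charge transfer RNAs. They were defined by symbol, as the protein-coding genes of Ensembl WBcel235 whose symbol starts with eif-, ife-, ifg-, iff- or eef-, or consists of 1 letter followed by ars- and a number. This gave 71 of the 19973 protein-coding genes on the nuclear chromosomes, of which 33 were counted as initiation factors (eif-, ife-, ifg- and iff-), 6 as elongation factors (eef-) and 32 as aminoacyl-tRNA synthetases. Where these genes were occupied by UNC-62, a homeodomain transcription factor of the Meis class, was read from ChIP-seq peak lists of whole Caenorhabditis elegans. The series has 1 group of 2 biological replicates, young adults aged 4 days with males and females pooled. All worms were of strain OP600, with unc119(ed3) and the transgene wgIs600, which carries unc-62 with TY1, EGFP and FLAG tags and unc119. No second genotype, treatment or time was included, so peaks can be compared between genes and between replicates, and not between conditions. Whole animals were used, so the tissue in which a gene was bound is not resolved. The antibody is labelled unc-62, while the sample description names the eGFP fusion.

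During initiation, eIF2 brings the first tRNA to the small ribosomal subunit, eIF3 serves as its scaffold, and eIF4E and eIF4G bring the capped mRNA. During elongation, eEF1A delivers each charged tRNA, the eEF1B complex reloads eEF1A with GTP, and eEF2 moves the ribosome along the mRNA. The synthetases attach each amino acid to its tRNA, in the cytoplasm and, by separate or shared enzymes, in mitochondria.

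A gene was said to have a promoter peak when the summit of a peak lay from 1000 bp upstream to 200 bp downstream of a transcript start of that gene. Peaks came from 2 lists on ce11. The first holds 843 peaks with a signal of at least 31.2 that were kept by a cutoff on the irreproducible discovery rate (IDR), a measure of how well replicate rankings match. The second is the pooled list of 19023 peaks, which is relaxed, reaches down to a signal of 8.57 and holds background regions by design. Signal is the strength given to a peak by the authors' peak caller, whose unit is not stated, and the read depth behind the lists is unknown. All 843 IDR-thresholded peaks were also in the pooled list, and 0 pooled peaks at or above the signal of 31.2 were outside the first list. The first list was thus also a cut of the pooled list by signal. Membership alone does not show that a given peak ranked alike in both replicates. Of the 421 promoter peaks in it at other genes, 4 overlapped a peak of replicate 2 only.

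Sequence is shown first for the 4 IDR-thresholded promoter peaks of these genes and for a weaker pooled peak at a paralog. The motif counts given further on use 50 bp on either side of each summit, so they do not cover the same bases as the printed runs. Each run is the reference sequence of WBcel235 (ce11) around the deposited summit, read 5′ to 3′ on the strand of the named gene, and it was cut where an annotated exon begins. The summit is base 101 of each run. Capitals mark the words GAGAGA and TGACAG, the latter the core word bound by Meis-class proteins, on either strand. The positions are chrII:8561368-8561551 for iff-2, chrX:7823181-7823381 for eef-1A.2, chrV:10965584-10965718 for eef-1G, and chrIII:7973934-7974134 for eef-1B.1, the 4 genes with an IDR-thresholded promoter peak. The next is chrIII:6972086-6972188 for eef-1A.1, the paralog of eef-1A.2. The genes iff-2, eef-1B.1 and eef-1A.1 lie on the minus strand, and eef-1A.2 and eef-1G on the plus strand.
iff-2: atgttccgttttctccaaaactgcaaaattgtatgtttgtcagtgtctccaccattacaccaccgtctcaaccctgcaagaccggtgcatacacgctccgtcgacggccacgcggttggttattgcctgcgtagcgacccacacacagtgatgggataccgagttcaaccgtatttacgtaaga
eef-1A.2: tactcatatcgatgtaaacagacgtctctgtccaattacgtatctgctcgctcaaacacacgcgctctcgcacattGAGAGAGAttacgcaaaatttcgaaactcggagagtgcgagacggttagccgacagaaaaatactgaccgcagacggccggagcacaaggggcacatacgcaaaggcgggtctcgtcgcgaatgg
eef-1G: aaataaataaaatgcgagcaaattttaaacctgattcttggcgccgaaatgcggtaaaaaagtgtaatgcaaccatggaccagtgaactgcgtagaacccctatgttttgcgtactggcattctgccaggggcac
eef-1B.1: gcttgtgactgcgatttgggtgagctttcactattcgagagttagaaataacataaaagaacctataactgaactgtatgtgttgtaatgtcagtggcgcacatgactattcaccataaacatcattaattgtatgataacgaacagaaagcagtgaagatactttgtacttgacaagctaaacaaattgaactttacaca
eef-1A.1: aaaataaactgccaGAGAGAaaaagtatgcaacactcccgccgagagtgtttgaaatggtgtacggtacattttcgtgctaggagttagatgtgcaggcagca

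As examples of TGACAG, these are the sequences at the pooled peaks of the synthetase genes mars-1 (chrIV:11636229-11636429, minus strand) and gars-1 (chrIII:5163076-5163276, minus strand). They were picked because both hold the word within 50 bp of the summit, so they do not stand for the synthetase peaks as a class. The strongest pooled promoter peak of the initiation gene ife-5 also holds it there and is not printed. Of the 4 IDR-thresholded member peaks 0 hold it there.
mars-1: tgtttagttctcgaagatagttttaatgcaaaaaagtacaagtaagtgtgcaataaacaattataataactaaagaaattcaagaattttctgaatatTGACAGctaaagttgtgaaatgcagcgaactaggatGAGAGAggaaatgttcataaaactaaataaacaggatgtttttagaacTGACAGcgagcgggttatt
gars-1: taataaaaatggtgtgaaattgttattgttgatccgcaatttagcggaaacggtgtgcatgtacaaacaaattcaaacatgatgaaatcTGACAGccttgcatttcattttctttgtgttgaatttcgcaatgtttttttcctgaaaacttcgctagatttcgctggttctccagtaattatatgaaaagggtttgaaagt

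Elongation factor genes stood highest among the 3 classes, both in the share of genes with a peak and in the typical strength of the peaks. Of the 71 genes, 4 (5.63%) had an IDR-thresholded promoter peak, against 2.42% of the 19902 other protein-coding genes. Counting only summits that lay in no other gene's window, the order turned, with 1 of 71 members (1.41%) against 1.67% of other genes. By class, without that restriction, 3 of 6 elongation genes (50%), 1 of 33 initiation genes (3.03%) and 0 of 32 synthetase genes had one. With the restriction it was 1 of 6 elongation genes (16.7%), 0 of 33 initiation genes and 0 of 32 synthetase genes. In the pooled list, 6 of 6 elongation genes, 14 of 33 initiation genes (42.4%) and 15 of 32 synthetase genes (46.9%) had a promoter peak, against 33.2% of the other genes. For initiation this order also turned, to 9 of 33 (27.3%) against 28.2%, when a peak counted only for the gene with the nearest start. Without that rule, the median of the strongest pooled signal per gene was 30.1 for elongation, 13.6 for initiation and 16.1 for synthetase genes. For the 6605 other genes with a pooled peak it was 12.5. A pooled signal of 20 or more was reached by 5 of 6 elongation genes, 5 of 33 initiation genes and 1 of 32 synthetase genes, against 6.39% of the other genes. As a neighbouring part of the translation machinery, 17 of 78 ribosomal protein genes (21.8%) had an IDR-thresholded promoter peak and 65 of 78 (83.3%) a pooled one. No test was made between these shares, since the genes are not replicates of a condition and the elongation class has only 6 of them.

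**Figure D1:**
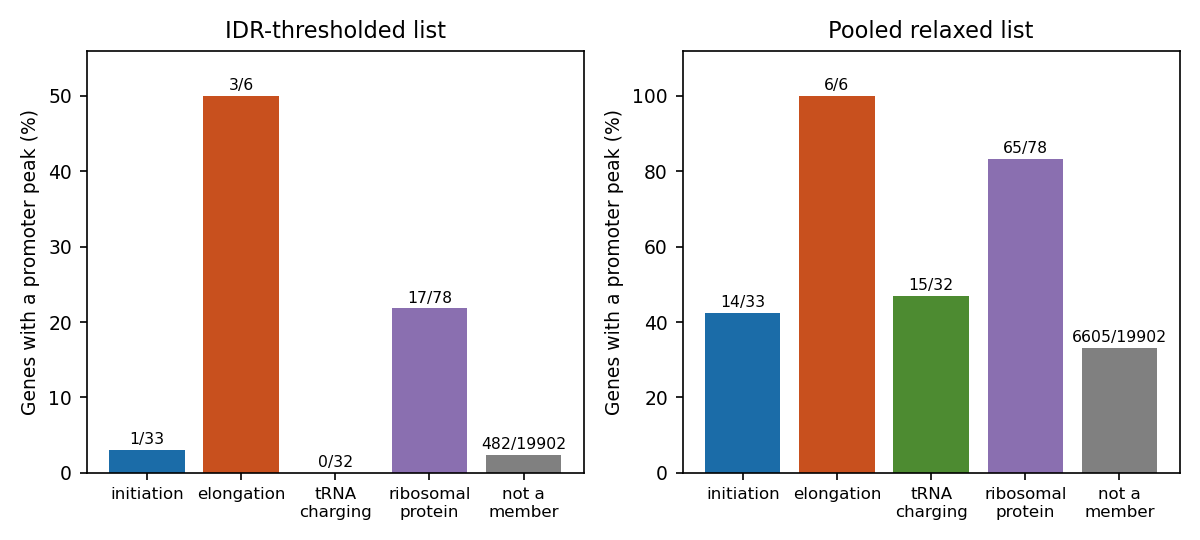
Share of genes with a promoter peak (percent) in the IDR-thresholded list (left) and in the pooled relaxed list (right), for the 3 classes, ribosomal protein genes and all protein-coding genes that are not members; numbers over the bars are genes with a peak of genes in the class. The elongation bar is the tallest in both panels, with 3 of 6 and 6 of 6 genes, and the synthetase bar is at 0 of 32 in the left panel.

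The strongest elongation peak was that of eef-1A.2, which encodes eEF1A (X, 7823654 to 7825769). Its signal was 46.2 in the pooled list, with 12.0 in replicate 1 and 32.5 in replicate 2. The summit lay 373 bp upstream of the start (X, 7823121 to 7823440), in no promoter window of another gene. The peak was much higher in replicate 2, where it ranked 264 of 28092 peaks, while in replicate 1 it ranked 978 of 30000.

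The other eEF1A gene, eef-1A.1 (III, 6970026 to 6971712), had a weaker peak of 26.7 (III, 6971928 to 6972247), below the IDR threshold. Its values in replicates 1 and 2 were 13.7 and 14.0, but it ranked 672 of 30000 peaks in the former and 2161 of 28092 in the latter. The summit lay 376 bp upstream of eef-1A.1, within 3 bp of where its paralog has it, but nearer to rfc-4, a gene for a subunit of the clamp loader of DNA replication that is read the other way from 165 bp beyond the summit. The microRNA gene cel-mir-5549 (III, 6971976 to 6972085) is annotated within the peak and starts 3 bp from the summit. The longest run of bases shared by the printed eef-1A.1 and eef-1A.2 sequences, on either strand, was 8. For the printed eef-1G and eef-1B.1 sequences it was 7. In eef-1A.2 the word GAGAGA occurs at 2 overlapping positions within 50 bp of the summit. The one in capitals in the eef-1A.1 sequence lies farther from the summit, and a further one within 50 bp is in the annotated microRNA, which is not printed.

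The eEF1B complex was represented by eef-1G, eef-1B.1 and eef-1B.2. The gene eef-1G (V, 10965719 to 10967922), for the gamma subunit, had a signal of 37.8 with the summit 35 bp upstream of its nearest start (V, 10965524 to 10965843). Unlike the peak of eef-1A.2 it was higher in replicate 1 (24.7) than in replicate 2 (12.3), a ratio of 2.01, and it ranked 112 of 30000 peaks in the former and 2957 of 28092 in the latter. The peak also lay 145 bp upstream of ctf-4, a gene named for chromosome transmission fidelity.

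The peak assigned to eef-1B.1 (III, 7972382 to 7973386), a gene for the exchange factor itself, had a signal of 31.6, close to the threshold, with 15 and 17.5 in replicates 1 and 2 (III, 7973874 to 7974193). Its summit was 648 bp upstream of eef-1B.1 and 193 bp inside aco-2, the gene of mitochondrial aconitase, in an intron of it. The start of aco-2 was therefore the nearer one. The second exchange factor gene, eef-1B.2 (IV, 15037331 to 15039551), had a pooled peak of only 11.2, with 3.36 and 7.72 in the replicates, which is below the median of other genes with a pooled peak. The peak summit fell in the annotated 3′ UTR of the neighbouring gene fcd-2.

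The translocation factor gene eef-2 (I, 9163531 to 9166952) had a pooled signal of 28.5 (I, 9163417 to 9163736), under the threshold, with 11.3 in replicate 1 and 16.2 in replicate 2. The summit coincided with 1 of its annotated starts and lay 311 bp upstream of clsp-1. The strongest pooled promoter peak of each elongation gene thus had a signal between 26.7 and 46.2 at 5 genes and of 11.2 at 1, and all 6 genes had a relaxed promoter peak in both replicates. Among the genes that are not members, 24.5% had one in both replicates.

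**Figure D2:**
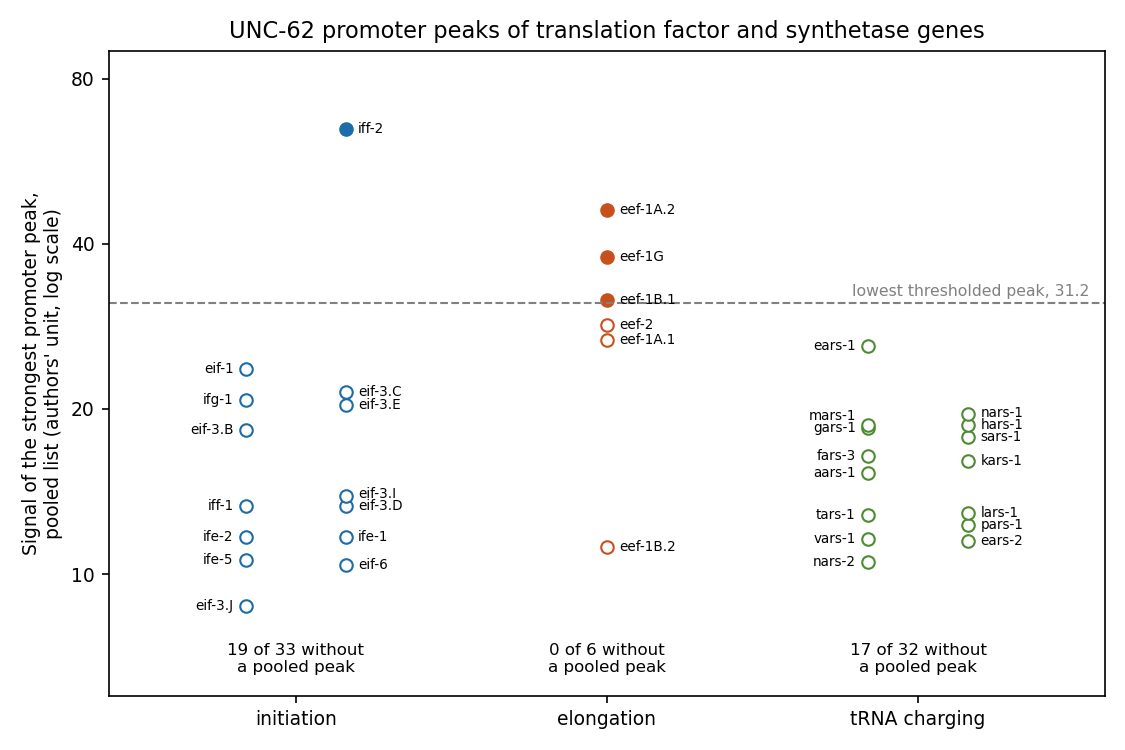
Signal of the strongest pooled promoter peak of each member on a log axis in the authors' unit, by class; filled points are genes with an IDR-thresholded promoter peak, open points are genes without one, the dashed line is the lowest IDR-thresholded signal of 31.2, and members without a pooled peak are counted at the bottom. The elongation genes sit between 26.7 and 46.2 except eef-1B.2 at 11.2, iff-2 stands alone among initiation genes at 64.7, and the highest synthetase gene, ears-1, is at 26.0.

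Among initiation factor genes the signal was concentrated on 1 gene, iff-2 (II, 8559375 to 8561367), which had the strongest promoter peak of all members. It encodes eIF5A, which is named as an initiation factor but is known to act in elongation, where it helps the ribosome join amino acids such as proline. The peak had a signal of 64.7 (II, 8561291 to 8561610), with 31.8 and 34.2 in replicates 1 and 2, and ranked 83 among the 815 nuclear IDR-thresholded peaks. It ranked 53 in replicate 1 and 225 in replicate 2, so it was among the strongest in each. The summit lay 84 bp upstream of iff-2 and 851 bp upstream of F54C9.14. The second eIF5A gene, iff-1 (III, 9745862 to 9747193), known for its role in the germ line, had a pooled signal of 13.3, with 5.04 and 6.88. Its peak was nearer to the start of cdk-1, a cyclin-dependent kinase gene. Counted with elongation, which was decided after the values were seen, the iff- pair brings that class to 4 of 8 genes in the IDR-thresholded list and 8 of 8 in the pooled list, and leaves 0 of 31 and 12 of 31 in initiation.

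Of the 31 initiation genes outside the iff- pair, the 12 with a pooled promoter peak had signals from 8.76 to 23.7. The highest was eif-1 (II, 4990831 to 4993580), for a factor in start codon selection, at 23.7. The replicates were far apart, at 4.2 in replicate 1 and 18.8 in replicate 2, and the summit lay 270 bp upstream of eif-1 but 148 bp upstream of vps-24, a gene read the other way. Next came eif-3.C at 21.5 (8.66 and 11.6), ifg-1 at 20.8 (6.33 and 12.9) and eif-3.E at 20.3 (8.04 and 13.7), where the values in parentheses are those of replicates 1 and 2. The gene ifg-1 encodes eIF4G, the scaffold of the cap-binding complex, and its peak, 571 bp upstream, was nearer to M110.3, from which it lay 35 bp upstream.

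Subunits of these factors whose genes have other symbols were not counted. Of the 11 eIF3 subunit genes with an eif- symbol, 6 had a pooled promoter peak, with a median of 16.1. In 3 of the 11 (eif-3.H, eif-3.K and eif-3.L) there was no promoter peak in any of the relaxed lists. The 3 genes of eIF2 and the 5 of its exchange factor eIF2B had no pooled promoter peak. All of these but eif-2Bdelta had a relaxed peak in at least 1 replicate, with values of at most 7.55 in replicate 1 (eif-2gamma) and at most 10.7 in replicate 2 (eif-2beta). The cap-binding eIF4E genes gave 3 pooled peaks of 5, in ife-1, ife-2 and ife-5, all between 10.6 and 11.7 and all without a peak in replicate 1 at that place. The member genes of eIF2, eIF2B, eIF3 and eIF4E had 0 IDR-thresholded promoter peaks between them. The other eIF3 peaks were at eif-3.B (18.3), eif-3.I (13.9), eif-3.D (13.3) and eif-3.J (8.76), and eif-6 had 10.4.

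Of the 32 synthetase genes 0 had an IDR-thresholded promoter peak, which at a background of 2.42% is too few genes to set them apart. Their pooled peaks had a median signal of 16.1, above the 12.5 of other genes. A pooled signal at or above the median of the list was reached by 14 of 32 (43.8%), against 20.3% of other genes. It was also reached by 11 of 33 initiation genes (33.3%) and 5 of 6 elongation genes (83.3%). When a peak counted only for the gene with the nearest start, 11 of 32 synthetase genes (34.4%) had a pooled peak, against 28.2%. The strongest synthetase peak was that of ears-1 (I, 10336395 to 10341178), a glutamate--tRNA ligase gene, with a pooled signal of 26.0 and 9.86 and 13.5 in replicates 1 and 2. The summit lay 190 bp upstream of ears-1 and 75 bp upstream of the divergent gene ZC434.3. Below it came nars-1 at 19.6 (6 and 11.1), hars-1 at 18.7 (7.48 and 17.2), mars-1 at 18.7 (14.3 and 11.0) and gars-1 at 18.5 (4.36 and 11.9). These genes charge tRNAs with asparagine, histidine, methionine and glycine. Of these 5 genes mars-1 was the highest in replicate 1 and hars-1 the highest in replicate 2. The summit at mars-1 was 842 bp upstream of it and 319 bp upstream of F58B3.6, and that of gars-1 was in an intron, 451 bp downstream of the nearer of its 2 annotated starts and upstream of the other. The strongest pooled peaks of the other 10 genes with one, sars-1, fars-3, kars-1, aars-1, lars-1, tars-1, pars-1, vars-1, ears-2 and nars-2, had signals from 17.8 down to 10.5. With the 843 strongest peaks of replicate 1 alone, mars-1 was the only synthetase gene with a promoter peak.

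The pooled peaks fell mostly on synthetase genes with number 1 or 3 in the symbol, 13 of 21, with a median of 16.4. Those with number 2 had 2 of 11, ears-2 at 11.5 and nars-2 at 10.5. This split was made after the values were seen. The number often, and not always, marks the mitochondrial enzyme: in RefSeq ears-2, pars-2 and rars-2 are annotated as mitochondrial, but so is aars-1, while aars-2 is the cytoplasmic alanine enzyme. In all, 11 of 32 synthetase genes (cars-1, aars-2, fars-1, lars-2, iars-2, yars-1, rars-1, dars-1, yars-2, dars-2 and fars-2) had no promoter peak in any relaxed list, against 4 of 33 initiation genes and 0 of 6 elongation genes. Of the other protein-coding genes 61.2% had one in at least 1 relaxed list, as did 21 of 32 synthetase genes (65.6%).

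Outside promoter windows, 2 IDR-thresholded peaks fell inside member genes, both of them synthetase genes. Of the other protein-coding genes 0.759% held such a peak. In fars-1, for the phenylalanine enzyme, a peak with signal 31.4 (I, 6212653 to 6212972, replicate signals 9.58 and 20) lay 1872 bp from its 5′ end. That place is annotated with the small nucleolar RNA gene T08B2.13 and the noncoding RNA T08B2.14, and its summit was 11 bp from the 5′ end of the former. In nars-2 a peak with signal 32.1 (III, 11496519 to 11496838, replicate signals 13.4 and 16.7) lay in an intron, 186 bp upstream of Y66D12A.24, a protein-coding gene nested in nars-2 and read the other way. In both cases a nested gene's 5′ end was nearer to the summit than that of the synthetase gene. In the pooled list, peaks inside the gene but outside its windows numbered 8 in 5 initiation genes, 4 in 4 elongation genes and 12 in 9 synthetase genes, while 27.0% of other genes held at least 1. The median gene span was 2152 bp for initiation, 2160 bp for elongation, 3576 bp for synthetase and 2024 bp for other genes. Whether span bears on these counts was not tested. The pooled peaks inside elongation genes were weaker than the promoter peaks of the same genes, the strongest being 20.3 in an intron of eef-1A.2.

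The summits of member peaks mostly lay close upstream of the starts. Over the strongest pooled promoter peak of each gene, the summit lay 0 to 500 bp upstream at 5 of 6 elongation genes, 10 of 14 initiation genes and 10 of 15 synthetase genes, against 56.4% of other genes. The medians were -353 bp, -270 bp and -190 bp, and -277 bp for the other genes. Many of these peaks could belong to a neighbour as well. Of the 35 members with a pooled promoter peak, 21 (60%) shared it with the promoter window of another gene, against 28.0% of other genes with such a peak. Of the 4 with an IDR-thresholded peak 3 (75%) shared it, against 150 of 482 other genes (31.1%), and the exception was eef-1A.2. Peaks do not tell which gene of a shared promoter the factor acts on. Distances are to annotated starts, which in worms can be the point where a spliced leader is joined rather than where transcription begins.

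**Figure D3:**
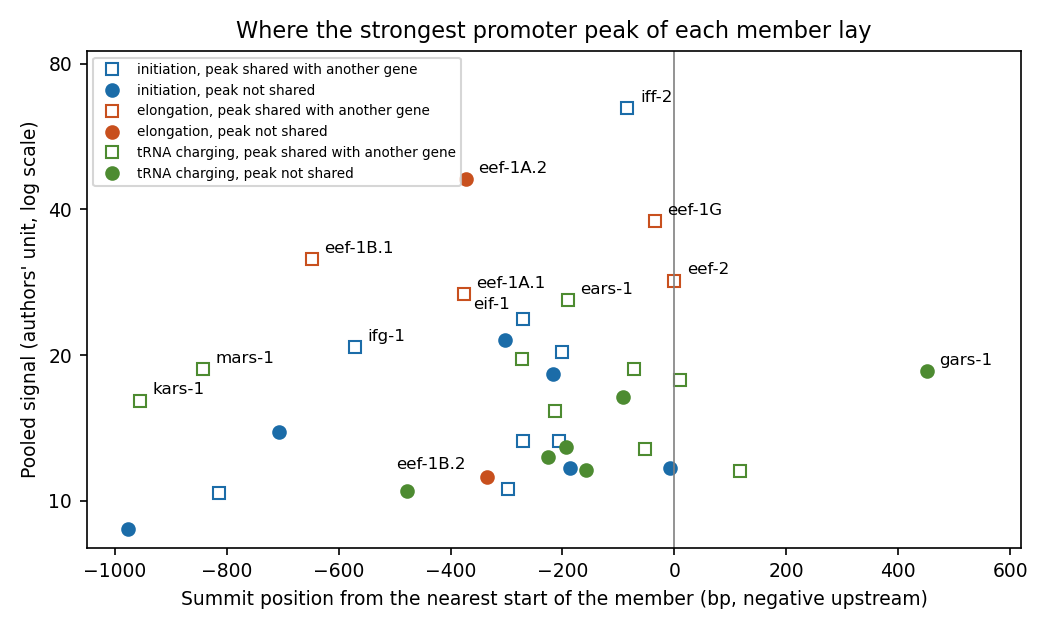
Position of the summit of each member's strongest pooled promoter peak from its nearest annotated start (bp, negative upstream) against its pooled signal (log axis, authors' unit); open squares are peaks that also lie in another gene's promoter window and filled circles are peaks that do not. The peaks of iff-2, eef-1G and eef-2 lie within 84 bp of a start, eef-1A.1 and eef-1A.2 at -376 and -373 bp, and eef-1B.1 at -648 bp.

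The 2 replicates ranked several member peaks differently. In the relaxed list of replicate 1, promoter peaks stood at 46 of 71 members (64.8%) and at 42.9% of the genes that are no members. In that of replicate 2 they stood at 42 of 71 (59.2%) and at 41.7%. Replicate 1 was the higher one at 9 of the 30 pooled member peaks found in both replicates (30%), against 19.1% of other pooled promoter peaks, and the median ratio of replicate 1 to replicate 2 was 0.741 against 0.655. The sources do not state that the replicates share a scale, so the ratios describe these lists. With the 843 strongest peaks of each replicate in place of the IDR-thresholded list, iff-2 was the only member present in both. Replicate 1 then gave eef-1A.1, eef-1B.1, eef-1G, iff-2 and mars-1, 5 of 71 genes against 2.42% of others. Replicate 2 gave eef-1A.2 and iff-2, 2 of 71 (2.82%) against 2.37% of others. Of the elongation genes, 3 of 6 had a peak with replicate 1 alone and 1 of 6 with replicate 2 alone, the former being eef-1A.1, eef-1B.1 and eef-1G and the latter eef-1A.2.

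**Figure D4:**
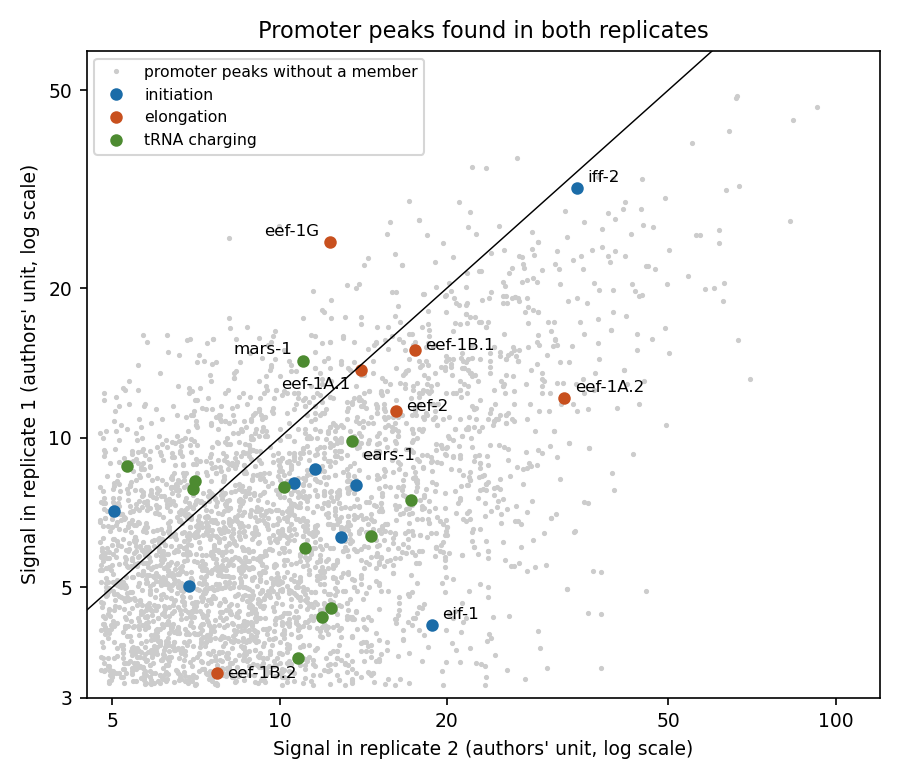
Signal in replicate 1 against replicate 2 on log axes in the authors' unit for promoter peaks of the pooled list found in both replicates; grey points are peaks with no member, coloured points the strongest peak of each member, and the line marks equal values. The gene eef-1G (24.7 and 12.3 in replicates 1 and 2) lies above the line, eef-1A.2 (12.0 and 32.5) far below it, and iff-2 (31.8 and 34.2) near it.

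The 4 IDR-thresholded member peaks are too few to tell whether members differ from other genes in the Meis core word. Within 50 bp of the summit, TGACAG was found in 0 of the 4 IDR-thresholded member peaks, against 20.2% of the 421 other IDR-thresholded promoter peaks. In the pooled list it was found in 4 of 40 member peaks (10%), against 5.68% of 6903 others. These counts cover both strands. The longer word TGATTGAC, the joined core of a Pbx-type and a Meis-class protein, which shares letters with TGACAG only in TGAC, was found in 0 of 4 and 1 of 40 (that of vars-1), against 4.04% and 0.782%. The GATA core AGATAA was found in 0 of 4 and 0 of 40, against 5.70% and 7.71%. GAGAGA was found in 1 of 4 and 5 of 40, against 19.7% and 11.5%. A missing word says only that these letters are not in the window. The windows of the 4 IDR-thresholded member peaks had a median GC content of 49.0%, against 42.6% for the others. The 4 values ran from 33.7% (eef-1B.1) to 59.4% (iff-2). In the pooled list the medians were 37.1% for the 40 member peaks and 35.6% for the others.

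Other genes of the translation pathway came from a fixed list of 34 symbols, of which 31 matched. Of these 31 genes, 3 had an IDR-thresholded promoter peak and 20 a pooled one (64.5%, median signal 17.8). Among the genes that are no members these shares were 2.42% and 33.2%, with a median signal of 12.5. The 3 were icd-1 at 87.7 (24.6 and 61.8 in replicates 1 and 2), which encodes a subunit of the nascent polypeptide-associated complex, larp-1 at 33.7 (10.1 and 21.3), for a La-related RNA-binding protein, and mnk-1 at 33.5 (14.3 and 19.9), for a kinase known in mammals to act on eIF4E. The peak of icd-1 was stronger than any member peak. The release factor genes erfa-1 and erfa-3 had pooled signals of 20.8 and 23.8, the kinase gene rsks-1 had 27.7, and the poly(A)-binding protein genes pab-1 and pab-2 had 18.1 and 26.6. Lower down, let-363 had 11.6 and efk-1 had 9.34, and genes such as gcn-2 and tct-1 had no pooled promoter peak.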

How the data were processed

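Peak lists from ChIP-seq of 2 biological replicates of 1 group were used, all on ce11. The notes deposited with the lists trace the pooled peaks to the 2 replicate alignments plus a control, and the IDR-thresholded ones to the relaxed lists. Which aligner and peak caller made them is not given in the sources used here. Peak signal as deposited by the authors served to rank peaks within a list. The −log10 q-value as deposited was at its maximum in all 843 IDR-thresholded peaks and was not used to rank. The ce10 lists were not used. Read depth is unknown.

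Genes and starts of protein-coding transcripts came from Ensembl release 115 (WBcel235), and sequence from the same assembly. A peak counted for each gene in whose window its summit lay. A replicate value is the strongest overlapping peak of that replicate. Python 3.11.15, numpy 2.4.6 and pandas 2.3.3 were used, and gene assignment was tested on simulated summits. Members, lists and classes were chosen with earlier results of these data known, so no set test was made. Named genes were members with an IDR-thresholded promoter peak, the 10 next strongest in the pooled list, and the IDR-thresholded genes of the other list. Further genes were named after their values were seen. The replicates are labelled biological, with the same strain as donor.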

Additional observations from a re-analysis of the deposited data

How the results depend on the processing

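Of 72 alternative counts, 62 stayed within 1.5 times the main count. This compares numbers of genes only, not which genes they are or the share of other genes, and the counts of all members repeat those of the classes. The IDR-thresholded count of all members (4) became 2 with the 421 strongest peaks of the list, 1 when the summit had to lie in no other gene's window (1.41% against 1.67% of other genes), and 2 to 5 with either replicate left out (2 without replicate 1, 5 without replicate 2). The elongation count (3) became 1 with those 421, 1 when the summit had to be in no other window, and 1 to 3 with a replicate left out (1 without replicate 1). The initiation count (1) became 0 when the summit had to be in no other window and 0 with the iff- genes counted with elongation, an alternative chosen after seeing the data, and stayed at 1 to 1 with a replicate left out. The synthetase count (0) ran from 0 to 1 with a replicate left out. Pooled initiation genes (14) became 9 when a peak went to its nearest start only, which is 27.3% against 28.2% of other genes. No paired analysis was possible because there is only 1 group. Peak lists carry no read depth, so a gene without a peak was not shown to be unbound.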
